A study of Mus musculus with 8 samples.

Results

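The vomeronasal receptor genes of the mouse autosomes were examined as 329 gene regions, 208 of the Vmn1r family and 121 of the Vmn2r family, out of 20807 autosomal protein-coding genes. Members were all protein-coding genes of GENCODE M21 on GRCm38 whose symbol starts with Vmn1r or Vmn2r, each taken as the gene body with 1 kb added on either side. Regions with fewer than 3 CpGs covered by 5 reads in each file were set aside, which left 303 members, 185 Vmn1r and 118 Vmn2r, beside 20603 regions in all. The annotation lists Vmn1r216 as 2 Ensembl genes, and 3 members carry "ps" in their symbol, the mark of a pseudogene, while being typed as protein-coding.

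Vomeronasal receptors are G protein-coupled receptors of the vomeronasal organ, the sensory epithelium at the base of the nose that detects pheromones and other chemical signals between animals. V1R receptors (Vmn1r genes) are found in neurons that use the G protein subunit Gαi2 and have a short extracellular part, whereas V2R receptors (Vmn2r genes) are found in neurons that use Gαo and bind their ligands with a long extracellular domain. Each neuron expresses 1 or a few receptor genes, the genes lie in large clusters formed by repeated duplication, and lymphocytes are not known to use them.

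Spleen lymphocytes of C57BL/6J mice aged 6 to 8 weeks had been profiled by bisulfite sequencing of the whole genome, in which unmethylated cytosines are converted and the share of unconverted reads gives the methylation level. The 8 samples formed 4 groups of 2: CD43- B cells and CD4+ CD62L+ T cells, each from females and from males, with cells pooled over animals. The labels name no mutation or treatment. Each group came with 1 file and whether that file holds both samples or 1 of them is not stated, so there is no spread within a group and intervals cover counting error only. Each B to T cell difference (B minus T, in percentage points) was seen once in females and once in males, and runs of 4 values below follow the order female B, female T, male B, male T.

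Mean depth over autosomal CpGs was 14.6 to 17.7 reads across the 4 files, and autosomal methylation was 79.5% to 80.7%. The labelled cell types were checked at the starts (1 kb on either side) of 8 lineage genes, and 4 of 4 T cell genes and 4 of 4 B cell genes had the lower level in their own cell type in both sexes. For example, Cd3e, a chain of the T cell receptor complex, was at 83.4%, 3.45%, 86.6% and 1.87%.

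The sequences below show a CpG-poor and methylated start, an unmethylated CpG-rich stretch at the GENCODE start of Vmn1r4, and Vmn2r27 and Vmn1r1, where B and T cells differed. A window of Vmn2r95 that differed as well is described further on without its sequence, since it lies in an untranslated exon. They are from GRCm38, written 5′ to 3′ on the strand of the receptor gene, with each CpG in capitals. The first is the 250 bases before the GENCODE start of Vmn1r9 (chr6:57066537-57066786, plus strand), a gene among the most methylated of its family. RefSeq starts Vmn1r9 4108 bases further on, with 0 CG in its 300-base promoter. The second is the 82 bases between the starts of Vmn1r4 and of Nt5c3, a nucleotidase gene transcribed in the opposite direction (chr6:56923933-56924014, plus strand). Next come the 250 bases before the start that RefSeq gives for Vmn1r4 (chr6:56956263-56956512, plus strand). Then follow 2 stretches of intronic sequence of Vmn2r27 (chr6:124226568-124226867 and chr6:124225668-124225967, minus strand), and 1 of Vmn1r1 (chr1:182160001-182160300, minus strand). The stretch of Vmn1r1 is intronic by GENCODE and lies before the RefSeq start. These last 3 are the 300 bases of their 1 kb window with the largest summed difference between B and T cells.
Vmn1r9 start: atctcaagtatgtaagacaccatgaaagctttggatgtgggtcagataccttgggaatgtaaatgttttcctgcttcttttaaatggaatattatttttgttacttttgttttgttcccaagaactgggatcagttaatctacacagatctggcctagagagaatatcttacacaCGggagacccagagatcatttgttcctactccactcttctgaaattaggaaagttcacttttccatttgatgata
Vmn1r4 and Nt5c3 starts: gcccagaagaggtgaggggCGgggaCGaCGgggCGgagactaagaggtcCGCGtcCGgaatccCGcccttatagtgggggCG
Vmn1r4 RefSeq start: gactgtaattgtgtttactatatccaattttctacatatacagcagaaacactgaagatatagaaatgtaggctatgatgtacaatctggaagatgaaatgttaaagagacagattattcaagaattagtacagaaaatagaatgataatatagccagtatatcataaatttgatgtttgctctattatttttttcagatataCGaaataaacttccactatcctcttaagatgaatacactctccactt
Vmn2r27 intron, first window: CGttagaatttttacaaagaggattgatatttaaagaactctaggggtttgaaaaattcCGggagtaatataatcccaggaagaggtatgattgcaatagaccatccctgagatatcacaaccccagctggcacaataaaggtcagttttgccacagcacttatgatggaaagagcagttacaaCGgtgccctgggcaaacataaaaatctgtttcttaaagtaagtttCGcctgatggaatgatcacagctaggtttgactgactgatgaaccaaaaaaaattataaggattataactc
Vmn2r27 intron, second window: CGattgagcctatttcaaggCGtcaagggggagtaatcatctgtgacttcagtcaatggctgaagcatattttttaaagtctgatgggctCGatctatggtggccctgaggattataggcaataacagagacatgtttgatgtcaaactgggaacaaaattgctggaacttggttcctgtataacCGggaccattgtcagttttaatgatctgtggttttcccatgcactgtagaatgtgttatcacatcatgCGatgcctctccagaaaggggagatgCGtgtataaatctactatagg
Vmn1r1 intron: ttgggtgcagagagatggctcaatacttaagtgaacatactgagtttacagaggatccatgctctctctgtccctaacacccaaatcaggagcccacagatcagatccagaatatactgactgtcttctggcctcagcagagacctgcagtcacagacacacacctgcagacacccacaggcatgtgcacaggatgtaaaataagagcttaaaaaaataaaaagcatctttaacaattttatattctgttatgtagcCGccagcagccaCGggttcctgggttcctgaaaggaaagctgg

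The receptor gene regions were highly methylated in both lymphocyte types. Pooled over all CpG reads, the Vmn1r regions were at 82.8%, 82.7%, 82.7% and 82.4%. The Vmn2r regions were at 84.8%, 85.1%, 84.6% and 84.9%. All 4 files therefore lay within 1 point of each other in either family. The median level of a measured gene (mean of the 4 files) was 84.1% for Vmn1r and 83.9% for Vmn2r, beside 86.1% for 1125 olfactory receptor genes (Olfr), 67.1% for 953 other protein-coding genes within 1 Mb of the receptor clusters and 74.5% for all genes. A level of 70% or more was found in 292 of the 303 members (96.4%) and in 58.1% of all gene regions. The members had few CpGs, with a median of 4.05 per kb against 12.3 per kb over all genes.

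**Figure D1:**
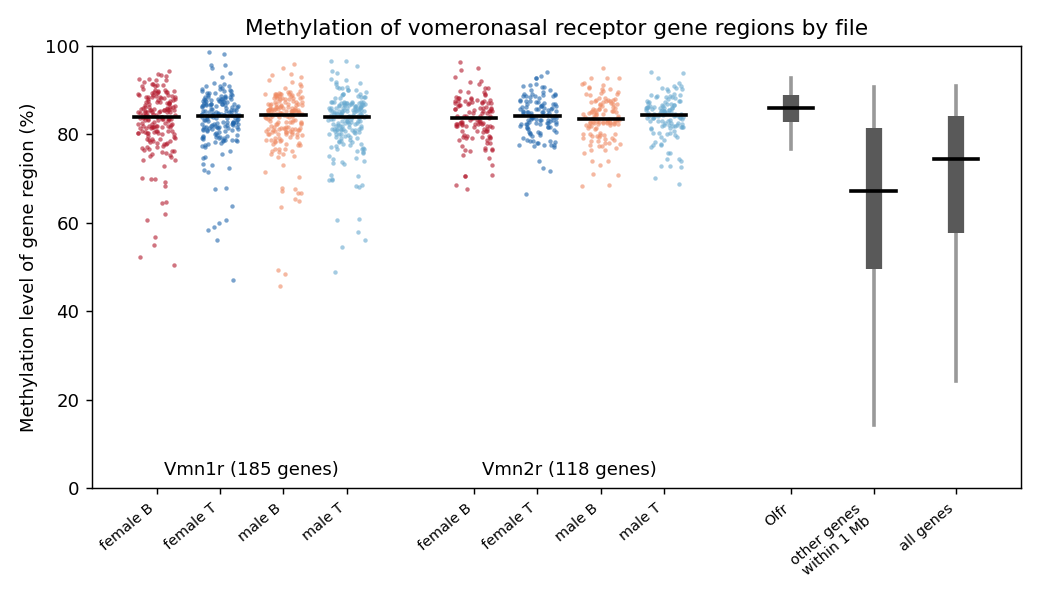
Methylation level of each measured gene region in each of the 4 files (points, with the median as a black line) for Vmn1r and Vmn2r, and, for comparison genes, the median of the 4-file mean with bars from the 25th to the 75th and thin lines from the 5th to the 95th percentile. The members' medians lie between 83.4% and 84.5% in every file, near those of Olfr genes and above the median of all genes at 74.5%.

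Levels varied more between genes than between files. In the Vmn1r family, levels ran from 49.0% to 94.8% with an SD of 6.87 points over 185 genes, and in the Vmn2r family from 69.5% to 94.3% with an SD of 4.72 points over 118 genes. The lowest Vmn1r region was Vmn1r4 (chr6:56924015-56958100), at 50.5%, 47.1%, 49.4% and 48.9% over 238 CpGs. Vmn1r170, Vmn1r157, Vmn1r210 and Vmn1r149 followed, with 4-file means of 54.0%, 54.4%, 60.5% and 62.3%. Of these 4, only Vmn1r210 was measured over more than 5 CpGs, with 26. The highest Vmn1r regions were Vmn1r7 (94.8%), Vmn1r15 (94.1%), Vmn1r21 (93.2%) and Vmn1r9 (93.2%), which lie together on chromosome 6, and 1 of the 2 genes named Vmn1r216 on chromosome 13 (92.7%).

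In the Vmn2r family the lowest regions were Vmn2r49 (69.5%), Vmn2r87 (71.1%), Vmn2r36 (73.3%), Vmn2r34 (73.5%) and Vmn2r116 (73.7%), the last of which encodes the receptor for the male tear peptide ESP1. The flank of Vmn2r87 overlaps a window of 43 CpGs at 7.63% with the start of a processed pseudogene, described below. Vmn2r116 was at 70.7%, 74.1%, 77.6% and 72.6%, so its B and T cell files overlapped. The highest were Vmn2r89 (94.3%), Vmn2r35 (93.5%), Vmn2r86 (93.0%), Vmn2r88 (92.3%) and Vmn2r26 (91.8%). Vmn2r88 and Vmn2r89 form the whole cluster on chromosome 14. Levels rested on few CpGs for some members, since 23 Vmn1r and 3 Vmn2r genes were measured over fewer than 10 CpGs.

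Grouped by position, with regions under 1 Mb apart joined, the members formed 26 clusters on 11 chromosomes, of which 16 held 4 or more members and 316 members in all. Both families occurred together in 3 clusters. The median gene level of a cluster ran from 77.8% for a lone gene on chromosome 7 to 93.3% for the pair on chromosome 14. The largest cluster, 65 Vmn1r genes on chromosome 7 (20099680 to 24063554), had a median of 81.3%. The next, 24 Vmn1r and 28 Vmn2r genes on chromosome 7 (7231327 to 13220657), had a median of 84.0% for its Vmn1r genes and 78.5% for its Vmn2r genes. The 36 Vmn1r genes of chromosome 13 had a median of 85.8%, and the 28 Vmn1r genes at the chromosome 6 cluster that starts with Vmn1r4 one of 88.0%. The 14 Vmn1r and 22 Vmn2r genes of the main chromosome 17 cluster had medians of 81.6% and 83.0%. The 7 genes on chromosome 3, Vmn2r1 to Vmn2r7, are the Vmn2r subfamily that many V2R neurons express beside another receptor, and they lay between 80.8% and 89.8% with a median of 87.0%.

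**Figure D2:**
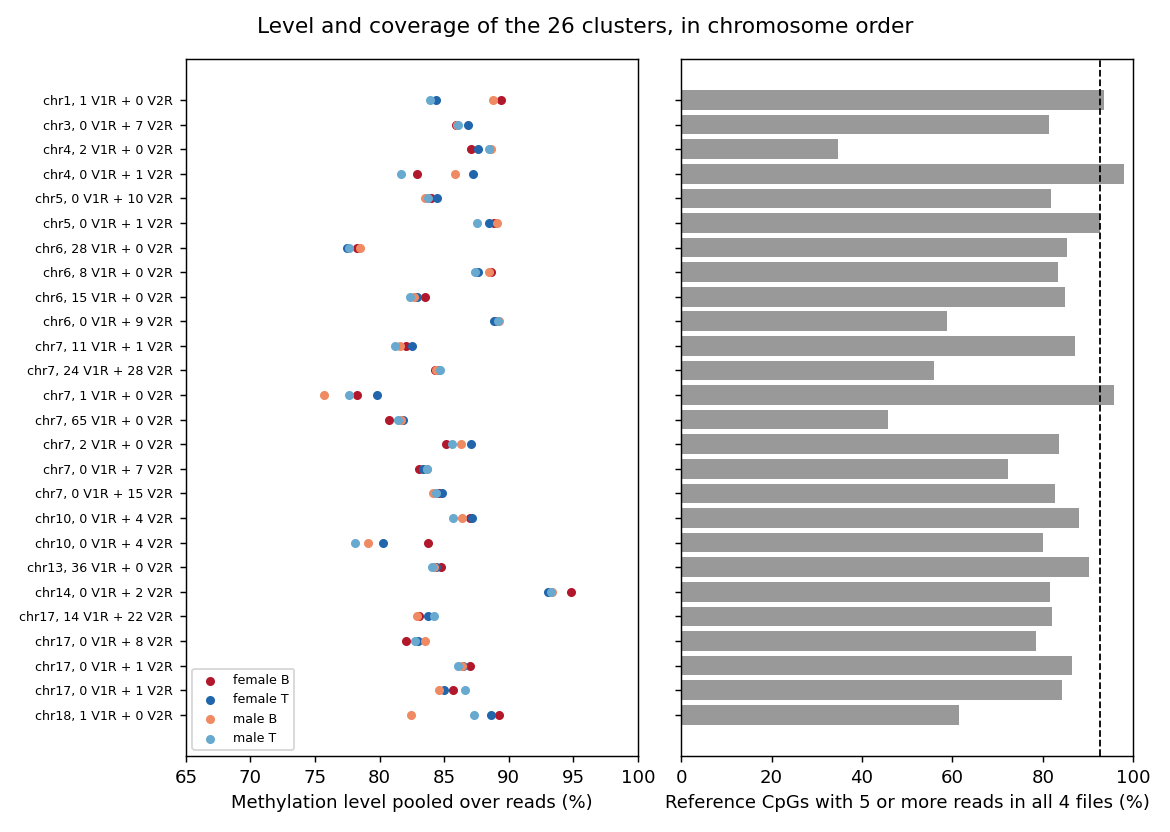
The 26 clusters in chromosome order, with the pooled methylation level in each of the 4 files (left) and the percentage of reference CpGs with 5 or more reads in all 4 files (right, dashed line: all protein-coding genes at 92.6%). Levels in the 4 files lie close together in the large clusters, while coverage ranges from 34.6% upwards.

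Coverage separated the clusters far more than methylation did. Over all members, 79.5% of the reference CpGs of Vmn1r regions and 70.2% of those of Vmn2r regions were usable in all 4 files, against 85.5% for Olfr genes and 92.6% for all genes. At the CpGs used, depth relative to the file's autosomal mean was 0.857 to 0.904 for Vmn1r and 0.825 to 0.870 for Vmn2r across the 4 files. The 65-gene cluster on chromosome 7 had 45.7% of its CpGs used, and the 28 Vmn2r genes of the neighbouring mixed cluster had 39.7%, whereas the 24 Vmn1r genes of that same cluster had 88.1%. Chromosome 13 had 90.2%. Sequence between genes inside the clusters had 59.5%, and 231 vomeronasal pseudogenes had 64.7%.

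Low coverage went with near-identical copies. In 45 Vmn1r and 22 Vmn2r genes, at least 50% of the region matched another member at 98% identity or more over at least 100 bases. Copies outside the members, such as the 231 pseudogenes, were not searched. Of their CpGs, 28.7% (Vmn1r) and 25.2% (Vmn2r) were used, against 84.6% and 77.6% in the other members. Across genes, Pearson's r between the share of CpGs used and the share of near-identical sequence was -0.80 over 208 Vmn1r and -0.79 over 121 Vmn2r genes. Members share reads and sequence, so these are descriptions. Whether reads were placed on the wrong copy was not tested, and the levels of these genes are uncertain.

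**Figure D3:**
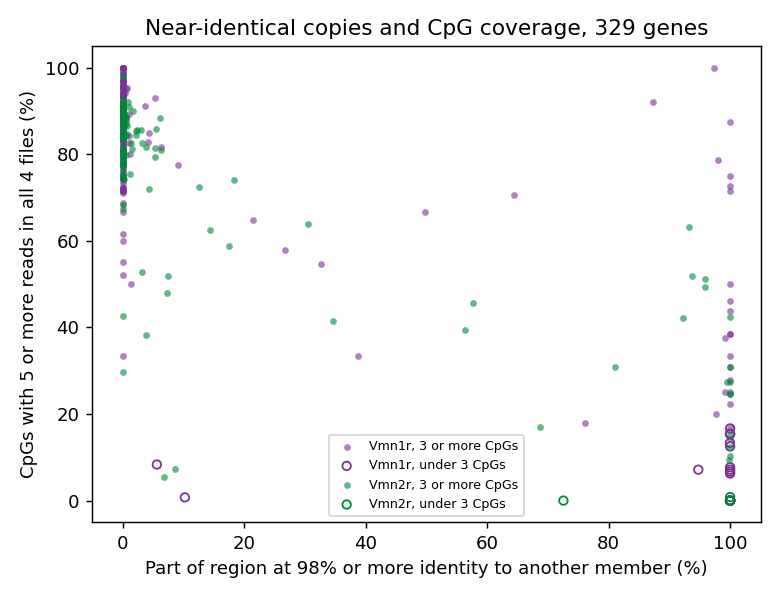
Percentage of CpGs with 5 or more reads in all 4 files (vertical) against the percentage of the region that matches another member at 98% identity or more (horizontal), for 329 genes. Open circles are the 26 genes with under 3 CpGs, most of which sit at the lower right.

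The 26 members that were not measured were Vmn2r21, Vmn2r46, Vmn2r47 and 23 Vmn1r genes, all 23 of the latter in the 65-gene cluster. In 24 of the 26, at least 50% of the region had a near-identical copy, and in 6 the nearest other member was identical over the whole alignment. No CpG was used in 12 of them, 1 CpG in 6 and 2 CpGs in 8 (Vmn2r21, Vmn1r101, Vmn1r104, Vmn1r112, Vmn1r132, Vmn1r139, Vmn1r142 and Vmn1r152). Just above the minimum, with 3 CpGs, were Vmn1r3, Vmn1r114, Vmn1r118, Vmn1r126 and Vmn1r165, whose nearest members were 98.9% to 99.8% identical. Their values scattered widely, for example from 76.9% in female B to 95.9% in male B cells at Vmn1r165.

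The annotated starts of receptor genes were highly methylated, as their bodies were, apart from Vmn1r4. Without Vmn1r4, the first 500 bases of Vmn1r genes were at 75.9%, below the 500-base bins just before (83.3%) and after (84.0%). Of the Vmn1r gene models, 59 span under 1200 bases, so their annotated starts may be those of the coding sequence. Within 1 kb of the annotated start, the median level was 83.6% over 161 Vmn1r genes and 81.6% over 90 Vmn2r genes, against 13.3% over 20255 genes. Over 994 Olfr genes the median was 85.7%. A level under 20% was found at 57.2% of all starts, at 0 Olfr starts and at 1 member, Vmn1r4. Levels under 50% were found at 3 more, Vmn1r157 (35.3%), Vmn2r50 (42.8%) and Vmn2r116 (48.3%). Each of these values rested on 3 CpGs, the minimum. Single files ran from 30.1% to 45.2% at Vmn1r157, from 27.8% to 52.0% at Vmn2r50 and from 30.6% to 60.5% at Vmn2r116. At least 50% of the region of Vmn1r157 and of Vmn2r50 has a near-identical copy, so these levels are uncertain. The 300-base promoters of RefSeq (GRCm38.p6) matched 183 Vmn1r and 114 Vmn2r symbols. They held a median of 1 CG dinucleotide in either family, of 1 over 944 Olfr promoters and of 7 over all 27025 promoters. At least 1 CG stood in 76.0% of Vmn1r, 71.1% of Vmn2r and 94.2% of all these promoters, and 10 or more in 0 of 183, 1 of 114 and 43.9%. The single CpG in the printed stretch before Vmn1r9 was methylated in 20 of 25, 12 of 12, 19 of 20 and 9 of 10 reads.

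**Figure D4:**
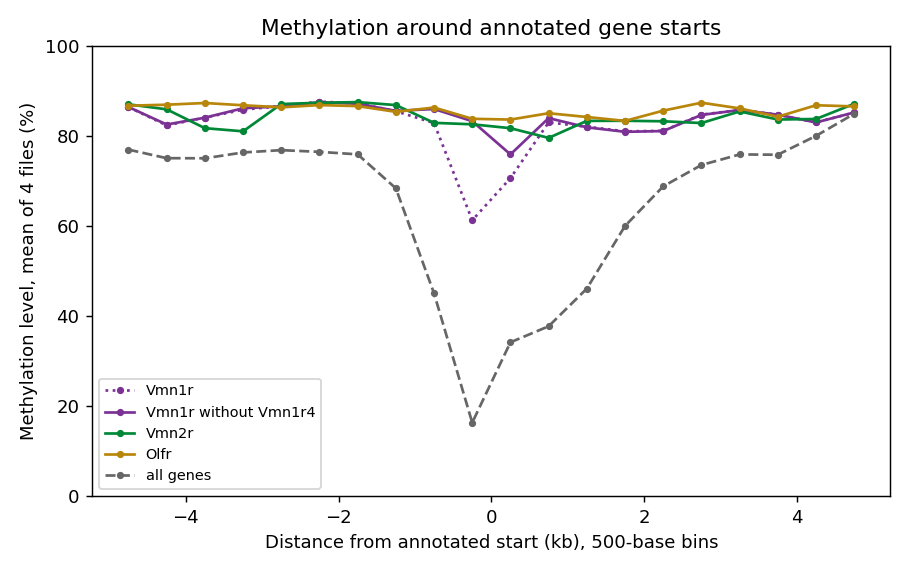
Methylation level (mean of the 4 files) in 500-base bins from 5 kb before to 5 kb after the annotated start, for Vmn1r with and without Vmn1r4, Vmn2r, Olfr and all protein-coding genes. All genes fall to 16.3% just before the start, while Vmn2r stays between 79.6% and 87.5% and Vmn1r without Vmn1r4 between 75.9% and 87.5%. The 75.9% is the bin just after the start.

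Vmn1r4 was the single member with an unmethylated GENCODE start, and which of its annotated starts is used was not tested. GENCODE places its start 83 bases from that of Nt5c3, and 60 of the 295 Vmn1r CpGs in the 500 bases before annotated starts belonged to it. Those 60 CpGs had a mean level of 0.0624% over the 4 files. With Vmn1r4 the Vmn1r family stood at 61.3% in that bin, and without it at 83.3%. The 9 CpGs between both starts, printed above, had 1 methylated count of 194 in male T cells, summed over CpGs. Female T, male B and female B cells had 0 of 199, 236 and 153. Were these counts independent, they would allow a level of up to 1.51%, 1.27% and 2.0%. However, 1 read can cover several of these CpGs, and each CpG had 15 to 31 reads per file, so the true limits are higher. RefSeq starts the same gene 32498 bases further on, and within 1 kb of that start Vmn1r4 was at 79.4%, 80.6%, 82.4% and 79.2%. Without Vmn1r4 the pooled Vmn1r level rose from 82.7% to 84.1%.

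The annotations placed the start over 5 kb apart in 48 of 184 Vmn1r and 8 of 114 Vmn2r genes matched by symbol. RefSeq starts Vmn2r29 30961 bases from the GENCODE start, at 23 CG dinucleotides in 300 bases and at the start of Gm45844 in GENCODE. Within 1 kb of it, 72 CpGs were at 33.6%, 37.2%, 22.2% and 30.7%. Of the GENCODE region of Vmn2r29, 93.7% has a near-identical copy. Copies around the RefSeq start were not looked at separately, and 72 of 74 CpGs within 1 kb of it were used. With RefSeq starts, 0 of 239 measured members were under 20% and 4 were under 50%, beside a median of 82.9%.

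Low methylation was also rare over whole member regions, starts included. Of 3133 windows of 1 kb with 3 or more CpGs in member regions, 4 had a mean level under 20% (0.128%, against 1.82% of all 1950708 autosomal windows) and 21 were under 50% (0.670% against 4.07%). Of the 4, 1 held the GENCODE start of Vmn1r4 and the adjoining one that of Nt5c3. Another, with 43 CpGs at 10.9%, 4.52%, 7.18% and 7.91%, lay in the 1 kb flank behind Vmn2r87 and held the start of the processed pseudogene Gm18755. The last, in an intron of Vmn2r27 (chr6:124202001-124203000), had 4 CpGs at 0% of 46 reads in female B, 12.1% of 66 in female T, 1.72% of 58 in male B and 13.0% of 100 in male T cells. The 0% allows up to 6.52% if counts at different CpGs are independent.

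Within members, level differed more with the bases around isolated CpGs than with the part of the gene. Coding exons, non-coding exons and introns were at 82.1%, 84.2% and 83.3% in Vmn1r and at 85.4%, 85.1% and 85.1% in Vmn2r. Among all genes, non-coding exons were at 43.8% and 1 kb flanks at 42.0%, against 84.2% and 79.2% in Vmn1r. Isolated CpGs (no other CpG within 35 bases) with A or T on both sides were at 74.5% in either family and at 82.4% over all genes. Isolated CpGs with C or G on both sides were at 89.5% in Vmn1r, 89.4% in Vmn2r and 88.1% over all genes. Olfr genes lay between, at 77.4% for the A or T context. In the 4 files the isolated A or T context ranged from 74.1% to 75.1% in Vmn1r and from 74.1% to 75.0% in Vmn2r. CpGs that had another CpG within 35 bases were at 85.3% in Vmn1r and 89.8% in Vmn2r. Those of them with A or T on both sides were at 85.2% and 86.7%, so the low level was that of isolated CpGs.

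To ask whether receptor genes differ between B and T cells, all 20603 gene regions were fitted with a quasi-binomial model and called where the adjusted p was under 0.05 and B and T cells were at least 10 points apart. The model called 306 gene regions (1.49%), and 0 of the 303 members were among them. Of 1125 Olfr genes, 4 were called. Before adjustment, 11 members had p under 0.05, 8 of them lower in B cells, beside 3492 of all regions. limma on log2 ratios called 190 regions and 0 members, with p under 0.05 before adjustment in 3091 regions and 38 members. Fisher's exact test in each sex called 309 regions and 0 members, where 4 members passed the adjusted p and not the 10 points. At a minimum of 10 reads 321 of 20414 regions and 0 of 275 members were called, and 3 members passed the adjusted p. By limma, without flanks and without the sex term, 1 member each passed the adjusted p and not the 10 points. The share of all regions that passed the adjusted p at any size is not given here. Without the female B cell file 1 member was called, Vmn1r116, which over 5 CpGs and 40 to 55 reads stood at 55.0%, 60.0%, 80.0% and 56.1% (adjusted p 0.0453 without that file). The smallest adjusted p among members was 0.0531, for Vmn2r27.

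Pooled over the Vmn1r family, B minus T was 0.163 ± 0.343 points (females) and 0.317 ± 0.337 points (males), where ± is a 95% counting interval. For Vmn2r it was -0.363 ± 0.241 and -0.260 ± 0.238. The mean of both sexes, -0.31, was -0.048 at a minimum of 10 reads and -0.79 as a difference of the files' median gene levels. Over all genes it was 1.61 and 0.0750 points. A mean difference under 2 points in size was found in 221 of the 303 members and one under 5 points in 287. The median difference was 0.017 points for Vmn1r and -0.48 for Vmn2r, beside 0.47 over all genes tested. Over clusters of 4 or more members, B minus T was negative in both sexes in 6 of 16 and positive in both in 6, with values from -1.34 to 3.46 points.

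The 5 members per family with the largest difference shared by both sexes all had the lower value in B cells. At least 50% of the region had a near-identical copy in 5 of these 10 (Vmn1r157, Vmn1r103, Vmn1r3, Vmn2r50 and Vmn2r37). Among all measured genes with such copies the median B minus T was -1.16 points for Vmn1r and -1.36 for Vmn2r, against 0.018 and -0.41 in the others, and the part of copies in these differences was not tested. In the Vmn1r family they were Vmn1r120 (B minus T of -6.69 and -8.92 points, 4 CpGs), Vmn1r157 (-6.66 and -15.0, 5 CpGs), Vmn1r103 (-6.29 and -9.26, 4 CpGs), Vmn1r177 (-5.38 and -10.3, 11 CpGs) and Vmn1r3 (-5.33 and -5.71, 3 CpGs). None passed the test, and their adjusted p-values ran from 0.148 to 0.439 by the quasi-binomial model. In the Vmn2r family they were Vmn2r50 (-9.10 and -6.06, 32 CpGs), Vmn2r27 (-5.74 and -5.28, 144 CpGs), Vmn2r37 (-5.12 and -4.73, 20 CpGs), Vmn2r36 (-4.72 and -11.1, 6 CpGs) and Vmn2r93 (-4.56 and -5.33, 82 CpGs). Vmn2r27 was at 85.2%, 90.9%, 83.5% and 88.8%, so both B cell files lay below both T cell files. The corresponding values of Vmn2r50 were 70.9%, 80.0%, 71.0% and 77.1%, and 95.9% of its region has a near-identical copy.

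Within regions, 1 kb windows were fitted over the whole autosomal genome and called where the adjusted p was under 0.05 and the difference at least 20 points. The model called 41431 of 1950708 windows (2.12%) and 11 of the 3133 windows in member regions (0.351%). Of the 11, 8 were higher and 3 lower in B cells, beside 1.19% and 0.934% of all windows. Windows of members hold few CpGs and few reads, and among windows of 3 to 5 CpGs the model called 0.235% in members and 1.32% overall. Olfr regions had 40 of 6379 called (0.627%). limma called 5 member windows and 21102 of all windows (1.08%). Before adjustment, 166 of 3133 member windows and 245750 of all windows had p under 0.05 in the model. The 11 windows lay in 7 genes, Vmn2r27, Vmn1r1, Vmn2r92, Vmn2r95, Vmn2r96, Vmn2r26 and Vmn1r217. Of these 11, 4 stayed called without each file in turn, by limma and at a minimum of 10 reads, namely both intronic windows of Vmn2r27, 1 of Vmn1r1 and that of Vmn2r95. With a file left out the sex term was dropped and 1 cell type had a single file, whose spread was taken from the other cell type and the prior.

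The strongest difference was in the 5′ part of Vmn2r27 (chr6:124189756-124231856, minus strand), where B cells were less methylated. The window at chr6:124226001-124227000 lies in an intron and was at 36.0% of 89, 90.2% of 123, 38.4% of 125 and 86.6% of 97 reads (adjusted p 5.62e-21). The next window, chr6:124225001-124226000, was at 68.6%, 95%, 66.1% and 94.4% (adjusted p 6.64e-16). Another window, over the gene's start (chr6:124231001-124232000), was at 72.4%, 94.6%, 52.0% and 91.3% over 3 CpGs (adjusted p 0.0106). It was no longer called without the female T cell file or without the male B cell file, at adjusted p 0.228 and 0.289, and could not be tested at 10 reads. In all 6 windows from 1 kb before the start to the second of these, B minus T was negative, from -51.2 to -9.22 points. This span was set by the calls and includes the 3 called windows, so its contrast with the rest is no test. Its uncalled windows had adjusted p 0.541, 0.140 and 0.429. The first and last of these were at -2.17 and -0.794 points in females and at -16.3 and -22.1 in males. The other 16 windows of the region had a median of 0.47 and ranged from -11.7 to 7.81. The window at -11.7 passed the adjusted p (0.0155) and not the size threshold.

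Both printed stretches of Vmn2r27 were picked for the largest difference in their window. Base by base, the stretch of the first window held 4 CpGs. In female B cells they were at 60.0%, 35.7%, 16.7% and 66.7%, and in male B cells at 69.2%, 52.2%, 11.8% and 47.8%, from 5′ to 3′. The same CpGs were at 90.5% to 96.0% in female T cells and at 77.8% to 100% in male T cells, so each CpG was lower in both B cell files than in both T cell files. In the second stretch the first CpG was lowest, at 21.1% in female B and 15.4% in male B cells against 94.4% and 100% in T cells, and the last 2 of its 6 CpGs were at 84.6% or more in all files. Each of these CpGs had 9 to 26 reads per file.

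**Figure D5:**
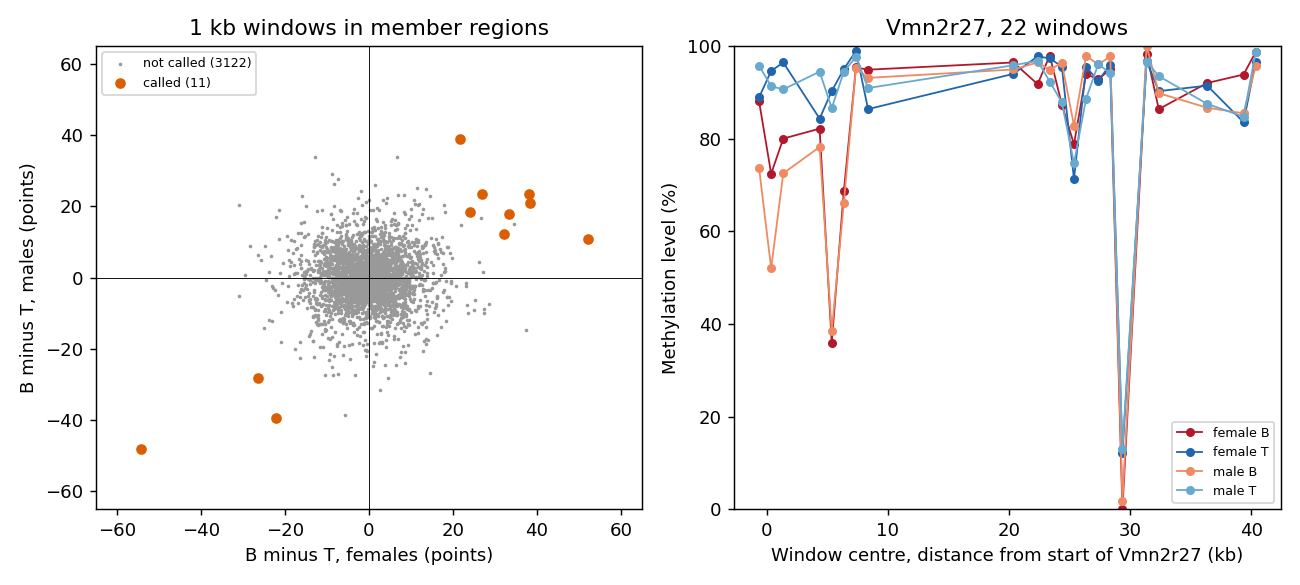
Left, B minus T in females (horizontal) and in males (vertical) for 3133 windows of 1 kb in member regions, with the 11 called windows in orange. Right, methylation level in the 4 files for the 22 windows of Vmn2r27 by distance of the window centre from the start, where the B cell files dip near 5 kb to 36.0% and 38.4% and all 4 files dip near 29 kb.

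Vmn1r1, a lone receptor gene on chromosome 1 (chr1:182154704-182164486, minus strand), held 2 called windows with the lower level in T cells. The intron and start named here are those of GENCODE. RefSeq starts the gene 6388 bases further on, so both called windows lie before that start. Within 1 kb of the RefSeq start, 15 CpGs were at 89.8%, 92.4%, 91.6% and 94.7%, with no lower level in T cells. The window at chr1:182160001-182161000, in an intron, was at 98.7%, 71.8%, 96.3% and 72.8% over 6 CpGs (adjusted p 4.91e-08). The printed stretch was picked for the largest difference in this window. Its 2 CpGs together were methylated in 20 of 20, 9 of 26, 38 of 40 and 3 of 21 reads, where a read covering both is counted at each. In T cells they were at 34.6% (females) and 14.3% (males), well below the whole window, so they carried most of its difference. Each of the 2 had 10 to 20 reads per file. A second window near the start, chr1:182163001-182164000, was at 75.8%, 37.5%, 63.8% and 42.9% over 3 CpGs (adjusted p 0.0174), and it was not called by limma or without either the female B, female T or male T cell file, at adjusted p from 0.0504 to 0.260. This second window could not be tested at 10 reads. Over the whole gene region B cells were 5.02 points (females) and 4.86 points (males) above T cells, which did not pass the test (adjusted p 0.0974).

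On chromosome 17, 4 windows of Vmn2r92, Vmn2r95 and Vmn2r96 were less methylated in T cells. The window in the last, untranslated exon of Vmn2r95 (chr17:18458001-18459000) was at 95.6%, 57.4%, 96.1% and 72.6% (adjusted p 1.21e-11). An intronic window near the end of Vmn2r96 (chr17:18615001-18616000), 85.2% identical to it over 813 bases, was at 89.7%, 57.6%, 87.2% and 75.0% (adjusted p 3.23e-07). The 2 windows of Vmn2r92 had 3 CpGs each, with B minus T of 33.3 and 17.7 points just behind the gene (adjusted p 0.00356) and of 52.2 and 10.8 points in an intron (adjusted p 0.00167), in females and males. Without the female T cell file neither these 2 windows nor that of Vmn2r96 was called, with remaining differences of 13.4 to 18.3 points. Both windows of Vmn2r92 also lost the call without the female B cell file, at adjusted p 0.118 and 0.0878. Neither Vmn2r92 nor Vmn2r96 was called by limma. The intronic window of Vmn2r92 could not be tested at 10 reads.

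The remaining called windows were in Vmn2r26 and Vmn1r217. Vmn2r26 (chr6:124035001-124036000), a receptor for peptides that bind MHC class I, was at 82.1%, 58.1%, 82.7% and 64.3% over 10 CpGs (adjusted p 1.9e-06, and not called without the female T cell file, at 18.1 points, or by limma). Vmn1r217 (chr13:23114001-23115000) was at 76.7%, 55.0%, 90.9% and 52.1% over 3 CpGs (adjusted p 0.00891), and without the male B or the male T cell file its adjusted p was 0.426 and 0.0893. It was not called by limma (adjusted p 0.140) and could not be tested at 10 reads. RefSeq starts Vmn1r217 inside this window, at 23114730, which is 3496 bases from the GENCODE start. Within 1 kb of the RefSeq start, a span that contains the window, 5 CpGs were at 86.7%, 66.7%, 89.3% and 65.2%.

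Females and males were compared in the same fits. No gene region was called, 0 of 20603 (0%) and 0 of 303 members by the quasi-binomial model, although 819 regions and 6 members had p under 0.05 before adjustment, and limma called 0 with 965 such regions and 31 such members. Of the windows, 20 of 1950708 (0.00103%) and 0 of 3133 in member regions were called, while 118 member windows and 92478 of all windows had p under 0.05 before adjustment. Female minus male had a median of 0.38 points over Vmn1r and 0.22 over Vmn2r genes.

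IAPs, endogenous retroviral elements that the study screened for variable methylation, were looked up where its list names them by a receptor gene. By its methods, the study drew up this list on bisulfite data of these B and T cells, so the values are a description and no independent evidence. The element named for Vmn2r97 (chr17:18967877-18969281) lies 9790 bases from that gene, and its higher-coordinate end was at 71.6%, 42.8%, 72.9% and 53.7% over 8 CpGs. Its lower-coordinate end was at 71.7%, 69.5%, 62.0% and 69.2% over 6 CpGs, where the B and T cell files overlapped. For the element named for Vmn1r3 (chr4:3192211-3200530) and the one inside Vmn2r35, 0 of 8 CpGs at the lower-coordinate end were usable. The higher-coordinate end of the Vmn1r3 element was at 75.8%, 59.8%, 97.8% and 69.0% over 5 CpGs with 6.6 to 14 reads each. That of the Vmn2r35 element (chr7:7794177-7796900) was at 92.9%, 96.4%, 90.0% and 91.4% over 4 CpGs, and that named for the pseudogene Vmn2r-ps126 was at 72.3% to 76.4% at one end and 63.8% to 76.4% at the other.

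Other genes of vomeronasal signalling were read from the same fit. Of 26 listed genes, 1 was called between B and T cells, beside 1.49% of all gene regions. It was Bcl11b, a transcription factor of both V2R neurons and T cells, at 73.2%, 45.0%, 72.4% and 42.8% (adjusted p 6.81e-06). The median B minus T of the list was 0.27 points. Trpc2, the vomeronasal cation channel, was at 92.3% to 95.1% in the 4 files and Omp, the olfactory marker protein, at 94.5% to 96.1%. Gnai2, the V1R G protein, which is also used in lymphocytes, was at 58.7%, 52.1%, 57.8% and 51.1% (adjusted p 0.0601), and its start was at 2.84%. Gnao1, the V2R G protein, was at 77.1% with a start at 5.24%. The 9 H2-M genes, MHC class Ib genes expressed with V2R receptors, lay between 84.0% and 90.7%, and the 4 formyl peptide receptor genes (Fpr-rs) of the organ between 80.9% and 92.3%. Starts under 20% were found in 8 of the 26 genes, beside 57.2% of all starts, and starts at 70% or more in 18.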

How the data were processed

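Whole-genome bisulfite sequencing was done on 8 samples in 4 groups of 2, with 1 file per group and no replicates within it. The submitters' processing notes name Trim Galore, FastQC, Bismark 0.13.1 and mm10. Removal of duplicate reads and merging of samples are not given in the sources used here. Part of each sample was oxidized, whereas the file names mark bisulfite alone, which reads 5-methylcytosine and 5-hydroxymethylcytosine alike. The deposited files give each CpG of both strands together, with its methylation as a fraction and its coverage as a count of reads, and hold only CpGs with 5 or more reads, so poorly mapped copies are under-represented.

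Methylated reads were recovered as fraction times coverage. Only CpGs with 5 or more reads in all 4 files were used. Gene regions and 1 kb windows with at least 3 such CpGs were fitted by a quasi-binomial model on cell type plus sex, which leaves 1 residual degree of freedom. Dispersions were moderated over features with limma 3.58.1 in R 4.3.3. P-values of F tests, or of chi-squared tests for windows, were Benjamini-Hochberg adjusted over all features tested. The prior for windows had infinite degrees of freedom, so each window received the same dispersion of 1.31 and very small p-values overstate certainty. On data simulated with the fits' own dispersions, the fits recovered planted changes larger than the thresholds. This checks the code and cannot show how the fits treat real spread, smaller changes or the highest levels. Limits of a count of 0 are 3 reads over the total, and 95% intervals are normal approximations. Both cover counting error only, and duplicates, if kept, would widen them. A read is counted at each CpG that it covers, so both can be too narrow where CpGs lie close together. P-values of the model for gene regions rest on how far the B and T cell difference departed between the sexes, moderated over features. Those for windows rest on counting error scaled by the shared dispersion. No spread between replicate pools enters either. Copies were found with blastn 2.17.0, and sequences are from the GRCm38 genome.

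Members, lists and tests were chosen with earlier results of these data known. Named were called members, the 5 lowest and 5 highest members per family, the 5 per family with the largest B minus T shared by both sexes, members around the minimum of 3 CpGs, members in the study's IAP list and the 6 called windows with the largest shared difference. The other 5 called windows, the low windows, Vmn1r116 and Vmn2r29 were added after their values were seen, as was the family without Vmn1r4. The lists were 8 lineage genes and 26 vomeronasal signalling genes. Alternatives covered read minimum, flanks, prior, test, threshold and left-out files.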

Additional observations from a re-analysis of the deposited data

Results flagged for a closer look

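At Vmn2r-ps159, alone in its cluster on chromosome 4 (156331103 to 156339499), the B and T cell difference had opposite signs in the sexes. It was at 82.9% in female B and 87.2% in female T cells, and at 85.8% in male B and 81.6% in male T cells. The female difference, B minus T, was -4.32 ± 3.20 points and the male one 4.17 ± 3.21 (95% counting interval). The difference between the sexes was not tested, and 26 clusters were looked at.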

How the results depend on the processing

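Gene regions called between B and T cells numbered 306, with 671 at 5 points, 62 at 20 points, 131 under 1 constant dispersion prior, 190 by limma, and 314 to 396 without 1 file. Members called were 0 under each of these except without the female B cell file (1, Vmn1r116). Member windows called numbered 11, with 20 at 10 points, 5 by limma and 9 to 12 without 1 file. At 10 reads, 12 of 1431 tested member windows were called, against 11 of 3133 in the main fit. Shares of all windows called are given above for the main fit and limma alone. The Vmn1r level of 82.7% became 83.2% as a mean over CpGs, 84.1% as the mean of each file's median gene level, 82.0% at 10 reads, 83.5% without flanks and 84.1% without Vmn1r4, an alternative chosen after seeing the data. The Vmn2r level of 84.9% became 84.8%, 84.0%, 85.1% and 85.2% under the first 4 of these. The Vmn2r B minus T of -0.31 points became -0.79 as a difference of the files' median gene levels (the median of the genes' own differences is -0.48) and -0.048 at 10 reads. Coverage at 10 reads was 44.3% for Vmn1r and 34.8% for Vmn2r. The cause of these shifts was not tested. No paired analysis was possible because the groups share no replicate numbers. The fits compare B and T cells within sex, and without the sex term 312 gene regions and 0 members were called. Few CpGs were usable in members with near-identical copies, which make up 24 of the 26 that could not be measured. The cause was not tested, and single CpGs rest on few reads. The size of the spread within a group is unknown.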
